A study of Mus musculus with 24 samples.

Results

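The proteasome subunits were followed through liver RNA of mice given an agonist of the constitutive androstane receptor (CAR). They were taken as the genes whose symbol is Psma, Psmb, Psmc or Psmd with a number, with repeated symbols summed, which gave 39 of the 24339 genes. Polyadenylated RNA from C57BL/6 livers was sequenced in 24 libraries, 3 in each of 8 groups. The hCAR-TG groups, which carry a human CAR knock-in, were given CITCO at day 60, corn oil at day 60, CITCO at day 5 or corn oil at day 5. The wild type (WT) groups, which have mouse CAR, were given TCPOBOP at day 60, corn oil at day 60, TCPOBOP at day 5 or corn oil at day 5. CITCO is an agonist of human CAR and TCPOBOP an agonist of mouse CAR, so receptor and ligand always differ together and cannot be told apart. No dose is labelled and nothing states that replicates come from separate animals, so p-values measure only the spread between these libraries. Values are FPKM, read fragments scaled to transcript length and to the library total, and changes are differences of log2(FPKM + 1) with their standard error (SE), tested with limma over 12282 genes at an adjusted p under 0.05. Of the 39 genes, 37 had at least 1 FPKM in at least 3 libraries and were tested. The testis alpha subunit Psma8 (0.200 to 0.746 FPKM) and the thymic Psmb11 (0 to 0.011 FPKM) were not.

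The proteasome is the protease that degrades ubiquitin-tagged proteins. Its barrel-shaped core is a stack of rings, outer rings of alpha subunits (Psma genes) that gate the entrance and inner rings of beta subunits (Psmb genes), of which Psmb5, Psmb6 and Psmb7 carry the active sites. The regulatory particle that caps the core has a ring of ATPases (Psmc genes) that unfold substrates, and non-ATPase subunits (most Psmd genes) that bind ubiquitin chains, remove them and form the base and the lid. Psmd5, Psmd9 and Psmd10 are chaperones that assemble the base and leave the finished particle. In immune cells, and in other cells under interferon gamma, Psmb8, Psmb9 and Psmb10 take the places of Psmb5, Psmb6 and Psmb7 and form the immunoproteasome, which favours peptides for presentation on major histocompatibility complex class I. The transcription factor NFE2L1 raises the subunit genes together when proteasome activity falls short.

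Cyp2b10, the standard CAR target in mouse liver, rose in all 4 ligand groups, which checks the labels. It had 1223, 1197 and 1259 FPKM in hCAR-TG day 60 CITCO livers, against 241, 208 and 227 FPKM with corn oil, and 2760.0, 2625 and 2404 FPKM in WT day 60 TCPOBOP livers, against 9.31, 11.9 and 17.4 FPKM with corn oil. Nr1i3, the mouse CAR gene, was lower in hCAR-TG corn oil livers at day 60 (6.94, 9.23 and 9.93 FPKM, against 53.4, 74.2 and 76.9 FPKM in WT) and at day 5 (18.7, 20.4 and 27.7 FPKM, against 68.6, 61.6 and 43.8 FPKM in WT), and whether reads of the human transcript were counted is not given. Alb, the marker of hepatocytes, lay between 10579 and 51186 FPKM, and the 24 libraries had FPKM totals of 451546 to 502499. Pancreatic acinar transcripts were high in hCAR-TG day 5 CITCO replicate 1, WT day 5 TCPOBOP replicate 2 and WT day 5 corn oil replicate 2 (summed 333.9, 357.1 and 260.8 FPKM, against at most 37.2 FPKM elsewhere). The hCAR-TG day 5 corn oil replicate 3 lay farthest from its group. The number that closes the read file names, whose meaning the labels do not give, differed wholly between the TCPOBOP and corn oil groups of WT day 5, so it cannot be told apart from that treatment.

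The promoters of 6 members that the results below turn on are shown: Psma1 and Psmd8 had the largest TCPOBOP changes at day 5 and day 60, Psmb5 and Psmb6 are constitutive catalytic subunits, and Psmb8 and Psmb9 are immunoproteasome subunits. Each runs from 250 bases before to 50 bases after the start that RefSeq gives on GRCm38.p6, and capitals mark matches, on either strand, to the 3 motifs counted below.
Psma1, chr7:114276067-114276366, minus strand: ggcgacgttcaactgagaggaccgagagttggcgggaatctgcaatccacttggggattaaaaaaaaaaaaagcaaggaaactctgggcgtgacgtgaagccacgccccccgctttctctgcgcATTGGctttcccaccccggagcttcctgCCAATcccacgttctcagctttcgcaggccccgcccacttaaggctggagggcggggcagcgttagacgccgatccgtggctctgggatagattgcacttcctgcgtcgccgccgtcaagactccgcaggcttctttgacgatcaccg
Psmd8, chr7:29180624-29180923, minus strand: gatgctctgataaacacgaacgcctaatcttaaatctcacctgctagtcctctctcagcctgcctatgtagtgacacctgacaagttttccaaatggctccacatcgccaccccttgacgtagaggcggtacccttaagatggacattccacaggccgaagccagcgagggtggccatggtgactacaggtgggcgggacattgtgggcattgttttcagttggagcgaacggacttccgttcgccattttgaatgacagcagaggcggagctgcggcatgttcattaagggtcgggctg
Psmb5, chr14:54617946-54618245, minus strand: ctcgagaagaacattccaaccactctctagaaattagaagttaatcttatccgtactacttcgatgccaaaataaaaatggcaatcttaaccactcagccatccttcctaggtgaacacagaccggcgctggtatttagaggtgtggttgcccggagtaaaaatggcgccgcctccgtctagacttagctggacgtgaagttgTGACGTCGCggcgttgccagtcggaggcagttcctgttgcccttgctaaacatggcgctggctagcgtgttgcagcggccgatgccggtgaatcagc
Psmb6, chr11:70525107-70525406, plus strand: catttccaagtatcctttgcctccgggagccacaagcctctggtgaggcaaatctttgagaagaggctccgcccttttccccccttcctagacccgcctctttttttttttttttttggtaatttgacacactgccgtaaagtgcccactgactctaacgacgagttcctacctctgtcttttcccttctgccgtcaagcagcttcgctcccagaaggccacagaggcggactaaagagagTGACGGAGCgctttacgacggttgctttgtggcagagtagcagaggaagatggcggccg
Psmb8, chr17:34197945-34198244, plus strand: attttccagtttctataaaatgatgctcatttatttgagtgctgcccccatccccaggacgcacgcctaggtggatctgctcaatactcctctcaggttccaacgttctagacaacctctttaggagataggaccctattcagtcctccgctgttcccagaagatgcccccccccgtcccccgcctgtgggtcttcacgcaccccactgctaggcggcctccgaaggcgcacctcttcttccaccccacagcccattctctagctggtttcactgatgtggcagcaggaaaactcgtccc
Psmb9, chr17:34187281-34187580, minus strand: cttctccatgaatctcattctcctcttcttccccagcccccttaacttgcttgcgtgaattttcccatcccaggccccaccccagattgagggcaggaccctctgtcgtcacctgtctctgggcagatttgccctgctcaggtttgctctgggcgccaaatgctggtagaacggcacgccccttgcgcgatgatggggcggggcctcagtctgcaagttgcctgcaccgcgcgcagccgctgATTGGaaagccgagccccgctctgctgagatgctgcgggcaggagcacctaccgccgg
The motifs were TGACNNNGC (the core of the antioxidant response element, which NFE2L1 and NFE2L2 bind), CCAAT, and GAAA followed after 2 bases of any kind by GAAA (the interferon-stimulated response element), each read on both strands and free to overlap. RefSeq gave 34 promoters for 32 members. TGACNNNGC was in 5 of the 34 member promoters, or 14.7%, against 12.4% of all 32851 promoters, and lay at -47 in Psmb5 and -9 in Psmb6. CCAAT was in 13 of 34, or 38.2%, against 37.4% of all, and was found 2 times in Psma1. The interferon-stimulated response element was in 3 of 34, or 8.82%, against 3.44% of all. Those 3 were the promoters of Psmd4, Psmd9 and Psmb3, and none was of Psmb8, Psmb9 or Psmb10. No letters of the Psmd8 or Psmb8 promoter matched any of the 3, and a match is a description of letters only.

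Levels were then compared between subunits on the FPKM scale, which is per transcript length. Among the 31 tested members other than the immunoproteasome subunits and the chaperones, the standard subunits, the highest mean FPKM with corn oil was 4.97 times the lowest in hCAR-TG livers at day 5 and 3.96 times at day 60, and 4.73 and 3.87 times in WT livers. Psmb4, a beta subunit without an active site, had the highest mean level in 6 of the 8 groups, for example 162 ± 9.36 FPKM in WT day 60 TCPOBOP livers (SD, n = 3), and Psmb7 in the other 2. The lowest was Psmd14, the deubiquitinase of the lid, in 5 of the 8 groups, for example 23.4 ± 1.06 FPKM in hCAR-TG day 5 CITCO livers. Per gene, the 3 immunoproteasome subunits averaged 12.6 ± 0.12 FPKM in hCAR-TG day 60 CITCO livers and 11.8 ± 0.13 FPKM with corn oil, while the 3 constitutive catalytic subunits averaged 81.84 ± 2.83 FPKM and 74.96 ± 0.27 FPKM. The chaperones Psmd5, Psmd9 and Psmd10 had the lowest level per gene of these roles, at 9.26 ± 0.27 FPKM per gene with CITCO and 9.41 ± 0.28 FPKM with corn oil in the same livers. Psmb5, Psmb6 and Psmb7 have processed pseudogenes in the GENCODE annotation. Psma4 and Psmb7 overlap other coding genes (AY074887 and Nek6), and Psmd1 overlaps Htr2b and, on its own strand, Gm21972. The values of these members are uncertain by the reads shared with those genes and pseudogenes, and whether the counting used strand is not given.

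TCPOBOP raised transcripts of nearly every proteasome subunit in adult WT livers. At day 60, 31 of the 37 tested members rose and 1 fell, against 31.4% of all tested genes that rose and 15.8% that fell. The median change of the members was 0.41 on the log2 scale, against 0.06 for all tested genes. All 7 alpha ring subunits, all 4 beta subunits without an active site, all 3 constitutive catalytic subunits, 5 of 6 ATPases and all 11 non-ATPase subunits rose, while none of the 3 immunoproteasome subunits passed the test. In 33 members all 3 TCPOBOP libraries lay above all 3 corn oil libraries, as they did in 37.7% of all tested genes. Over the 31 standard subunits the fold of the mean FPKM ran from 1.09 for Psmc6 to 2.22 for Psmd8, with a median of 1.37. Members made up 0.507% to 0.537% of the FPKM total in TCPOBOP libraries and 0.363% to 0.393% in corn oil libraries.

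Psmd8, a lid subunit of the regulatory particle, rose most. It had 127, 119 and 111 FPKM in the 3 TCPOBOP libraries, against 57.0, 51.8 and 52.0 FPKM in the 3 corn oil libraries, a change of 1.14 ± 0.06 (adjusted p = 2.34e-12). Every TCPOBOP library was about as far above every corn oil library, with little spread in either group. Psmb5, the active-site subunit with chymotrypsin-like activity, had 124, 129 and 114 FPKM with TCPOBOP, against 68.6, 71.6 and 68.7 FPKM with corn oil, a change of 0.80 ± 0.07 (adjusted p = 6.15e-09). Psmd1, the large scaffold subunit of the base, had 59.0, 60.0 and 54.7 FPKM with TCPOBOP, against 31.0, 34.2 and 33.7 FPKM with corn oil, a change of 0.79 ± 0.08 (adjusted p = 8.93e-08). The groups did not overlap for either gene. The other catalytic subunits Psmb6 and Psmb7 rose by 0.53 ± 0.08 and 0.59 ± 0.06 (adjusted p = 7.29e-06 and 4.04e-08).

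**Figure D1:**
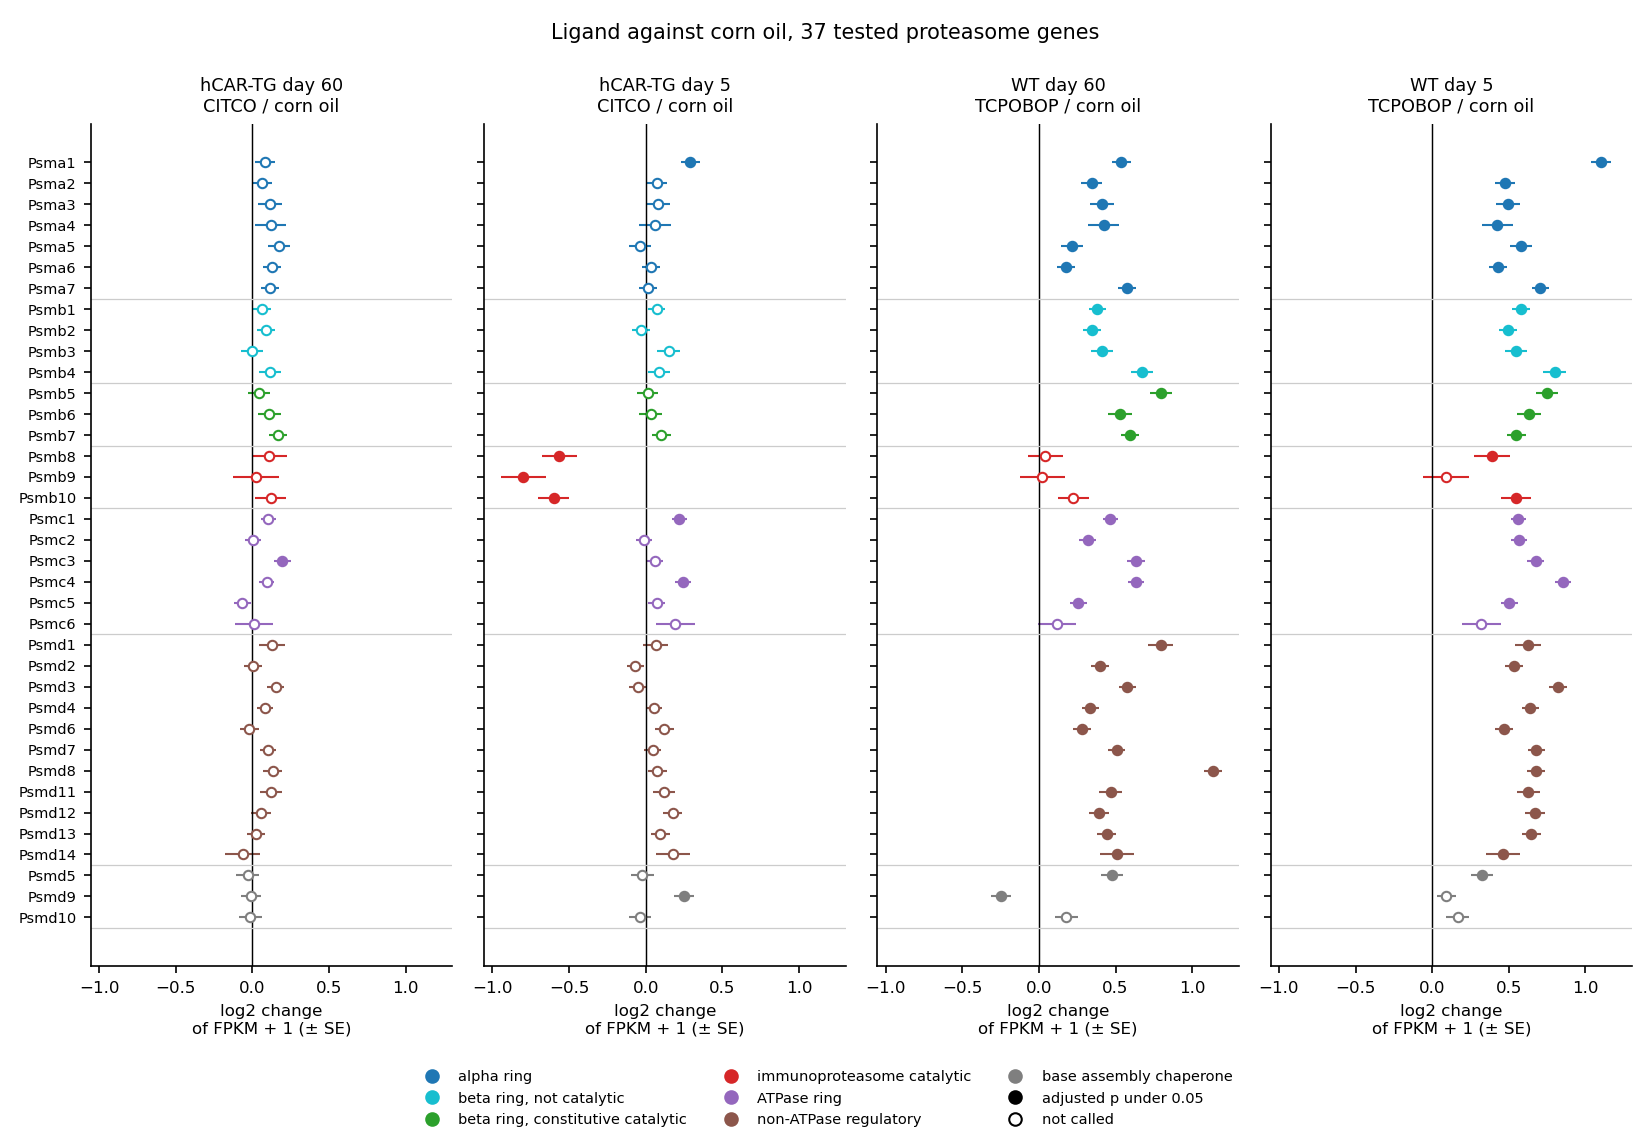
Change of each of the 37 tested members with the ligand against corn oil, as the difference of log2(FPKM + 1) with its SE, in hCAR-TG mice at day 60 and day 5 (CITCO) and in WT mice at day 60 and day 5 (TCPOBOP); filled points have an adjusted p under 0.05. Filled points lie right of 0 for 31 members in WT at day 60 and 33 at day 5, against 1 and 4 members in hCAR-TG mice.

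The smallest called changes of adult WT livers were in the alpha ring. Psma5 and Psma6 rose by 0.22 ± 0.07 and 0.18 ± 0.06 (adjusted p = 0.0148 and 0.0164), and neither passed without WT day 60 corn oil replicate 1 (0.0921 and 0.0861) or after median-of-ratios scaling (0.165 and 0.287). Psmc6, an ATPase, changed by 0.12 ± 0.13 (adjusted p = 0.485), with overlapping groups. Psmd9 went the other way from the rest. This chaperone had 8.16, 7.89 and 7.86 FPKM with TCPOBOP, against 8.89, 9.74 and 10.4 FPKM with corn oil, and fell by 0.25 ± 0.06 (adjusted p = 0.00297), while the chaperone Psmd5 rose by 0.48 ± 0.07 (adjusted p = 1.71e-05). Among the immunoproteasome subunits, Psmb8 had 15.7, 16.8 and 17.3 FPKM with TCPOBOP, against 15.5, 17.9 and 14.9 FPKM with corn oil, and Psmb9 and Psmb10 changed by 0.02 ± 0.15 and 0.23 ± 0.10 (adjusted p = 0.803, 0.927 and 0.0688 for Psmb8, Psmb9 and Psmb10). The cell cycle list moved with the subunits, with all 15 genes higher and a summed level of 165 to 221 FPKM in TCPOBOP livers, against 21.2 to 21.9 FPKM in corn oil livers. Over all tested genes 31.4% rose and 15.8% fell. Of the 10 hepatocyte markers 8 were lower, with sums of 27470.0 to 30020.0 FPKM with TCPOBOP and 48230.0 to 58430.0 FPKM with corn oil, and the part of either in the subunits' change was not tested. In bulk tissue, fewer cells of a type and less RNA per cell cannot be told apart.

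**Figure D2:**
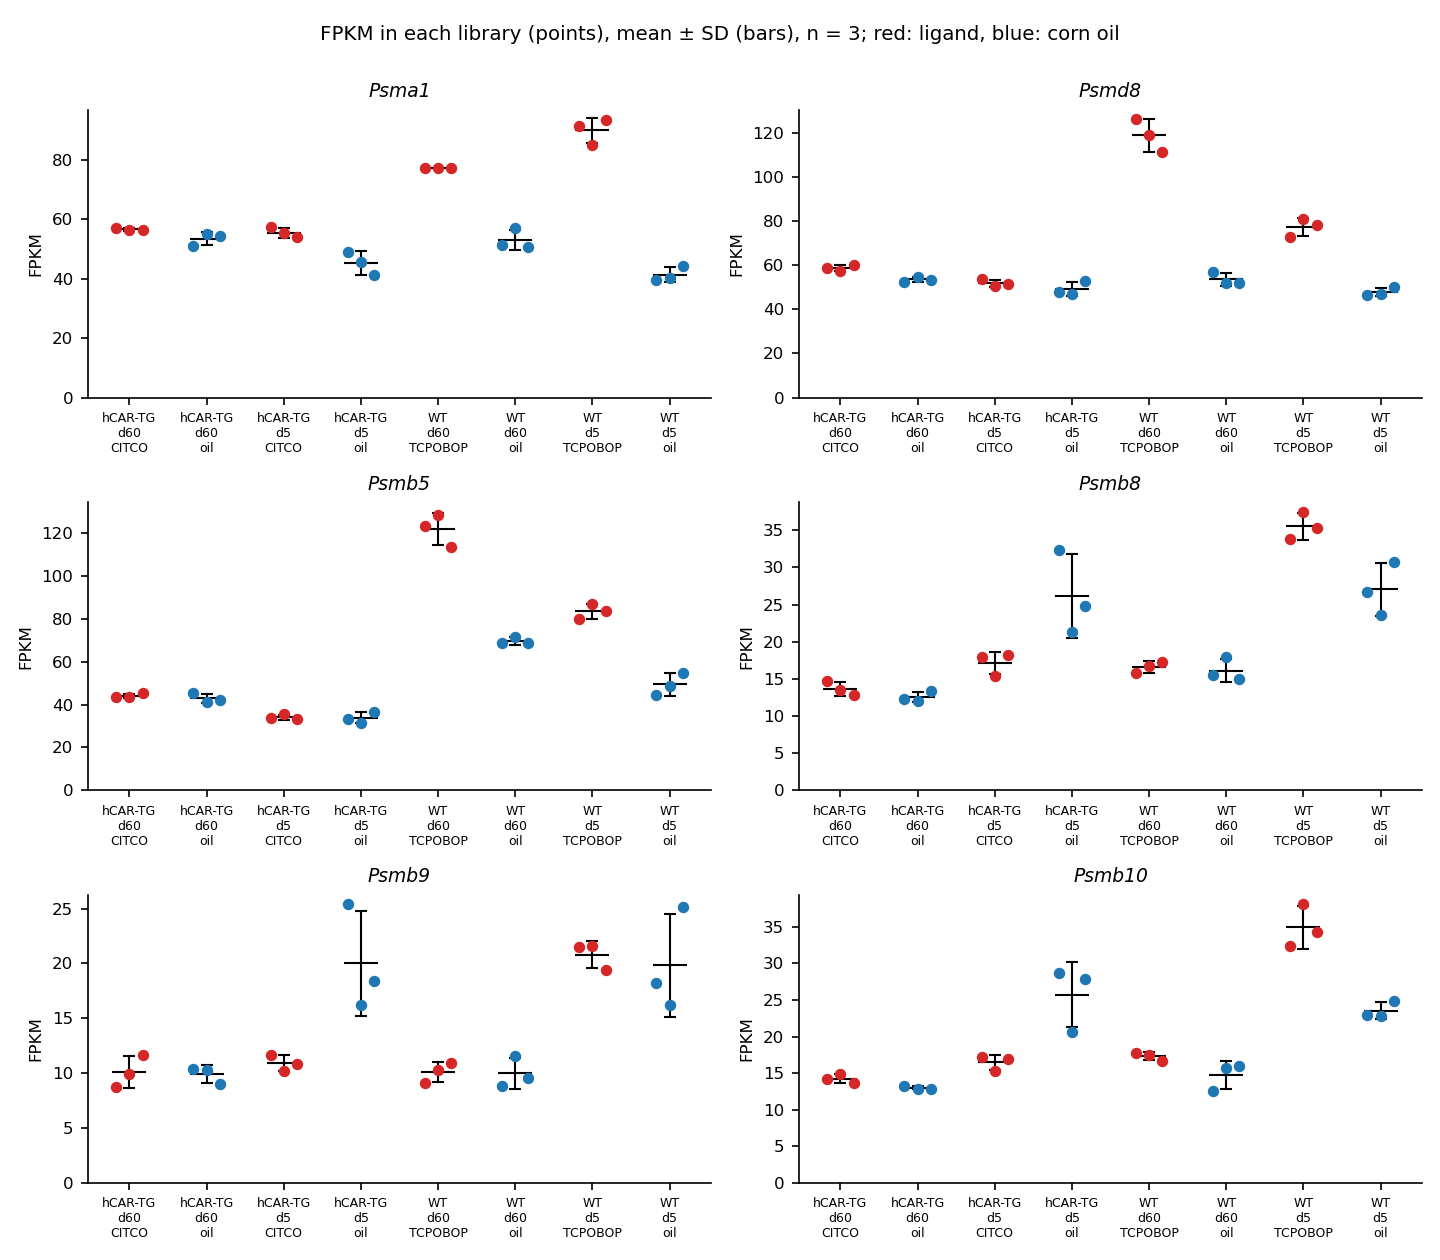
FPKM of Psma1, Psmd8, Psmb5, Psmb8, Psmb9 and Psmb10 in every library, by group, with the mean and SD of 3 libraries; ligand groups stand left of their corn oil groups. Psma1 and Psmd8 in WT mice lie wholly above corn oil with TCPOBOP at both ages, and Psmb8, Psmb9 and Psmb10 lie wholly below corn oil with CITCO in hCAR-TG mice at day 5.

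In newborn WT livers TCPOBOP raised the subunit transcripts as well. At day 5, 33 of 37 members rose and none fell, against 24.6% and 11.3% of all tested genes, and the median change was 0.56, against 0.04 for all tested genes. In 35 members the TCPOBOP libraries lay wholly above the corn oil libraries, as in 30.0% of all tested genes. The fold of the mean FPKM over the 31 standard subunits ran from 1.27 for Psmc6 to 2.17 for Psma1, with a median of 1.51. Every alpha ring subunit, every constitutive beta subunit and every non-ATPase subunit was called, with 5 of 6 ATPases, 2 of 3 immunoproteasome subunits and 1 of 3 chaperones. Without the 3 libraries rich in acinar transcripts, 34 rose and none fell.

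Psma1, an alpha ring subunit, rose most at day 5. It had 91.3, 85.2 and 93.3 FPKM in TCPOBOP livers, against 39.5, 40.4 and 44.3 FPKM in corn oil livers, a change of 1.10 ± 0.06 (adjusted p = 1.93e-11). Psmc4, an ATPase, had 63.6, 69.2 and 66.4 FPKM with TCPOBOP, against 36.6, 37.2 and 35.0 FPKM with corn oil, a change of 0.85 ± 0.05 (adjusted p = 4.68e-11). Psmd3, a lid subunit, had 52.4, 59.5 and 53.8 FPKM with TCPOBOP, against 31.6, 29.6 and 31.2 FPKM with corn oil, a change of 0.82 ± 0.06 (adjusted p = 3.57e-10). In all 3 genes the TCPOBOP libraries stood clear of the corn oil libraries. The constitutive catalytic subunits Psmb5, Psmb6 and Psmb7 rose by 0.75 ± 0.07, 0.63 ± 0.08 and 0.55 ± 0.06. Of the immunoproteasome subunits, Psmb10 rose by 0.55 ± 0.10 (adjusted p = 0.000175) and Psmb8 by 0.39 ± 0.11 (adjusted p = 0.0109), the second with adjusted p = 0.0737 without WT day 5 corn oil replicate 2. Psmb9 changed by 0.09 ± 0.15 (adjusted p = 0.689), with overlapping groups. The Kupffer cell and macrophage list had 4 of 12 genes higher, and its sum was 863 to 1046 FPKM with TCPOBOP, against 748 to 770.5 FPKM with corn oil. Among leukocyte genes Laptm5 and Cd52 were higher, with sums of 105 to 114 FPKM with TCPOBOP and 84.0 to 93.2 FPKM with corn oil. Among lymphocyte genes Cd3d and Gzma were higher and Ms4a1 lower, with sums of 37.7 to 42.6 FPKM and 30.9 to 32.2 FPKM. Of the 18 genes of the class I and interferon list, Tap1, Tapbp, H2-K1, H2-D1 and Irf8 were higher (0.47, 0.59, 0.40, 0.56 and 0.63) and Ifit3 was lower (-0.46). That is near the shares of all tested genes, 24.6% higher and 11.3% lower, and says nothing particular of this list. The cell cycle list had 7 of 15 genes higher, with sums of 214 to 230.3 FPKM with TCPOBOP and 141 to 205 FPKM with corn oil. Of the 10 hepatocyte markers 4 were lower and 1 higher, with sums of 84560.0 to 90070.0 FPKM with TCPOBOP and 117600.0 to 128700.0 FPKM with corn oil. The stellate list had 3 of 6 lower, with sums of 96.5 to 125 FPKM with TCPOBOP and 152 to 162 FPKM with corn oil. The same shares, 24.6% higher and 11.3% lower, stand beside the counts of all these lists. The part of these lists in the subunits' change was not tested.

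The responses of adult and newborn WT livers were then set against each other. All 31 members that rose at day 60 also rose at day 5, which is every day 60 call and 93.9% of the 33 day 5 calls, and the 2 called at day 5 alone were Psmb8 and Psmb10. Across the 37 members the changes at day 60 and day 5 had a Pearson r of 0.694 and a Spearman rho of 0.732, as a description over genes that share libraries. The difference between the responses was called in 11 members: 1 rose more at day 60 and 10 rose less, against 13.7% and 9.76% of all tested genes. Psmd8 rose more at day 60, by 0.46 ± 0.09 (adjusted p = 0.000417). Psma1 rose less at day 60, with a difference of -0.56 ± 0.09 (adjusted p = 7.69e-05), as did Psma5 (-0.36 ± 0.10, adjusted p = 0.0111). Psmd9, lower with TCPOBOP at day 60 and not called at day 5 (0.09 ± 0.06), had a difference of -0.34 ± 0.09 (adjusted p = 0.00862). The other 7 members, Psmd4, Psmd12, Psma6, Psmc2, Psmc5, Psmd3 and Psmc4, differed by -0.31 to -0.22. This count was 4 without the 3 libraries rich in acinar transcripts, 1 more and 3 less, and 7 without WT day 5 corn oil replicate 1 or WT day 5 TCPOBOP replicate 3, and 5 without WT day 60 corn oil replicate 2. Psmd8, Psma1 and Psma5 kept their calls in all of these settings, and Psmd9 lost its call without the acinar-rich libraries (adjusted p = 0.0776). The number closing the read file names cannot be told apart from this difference between the responses.

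**Figure D3:**
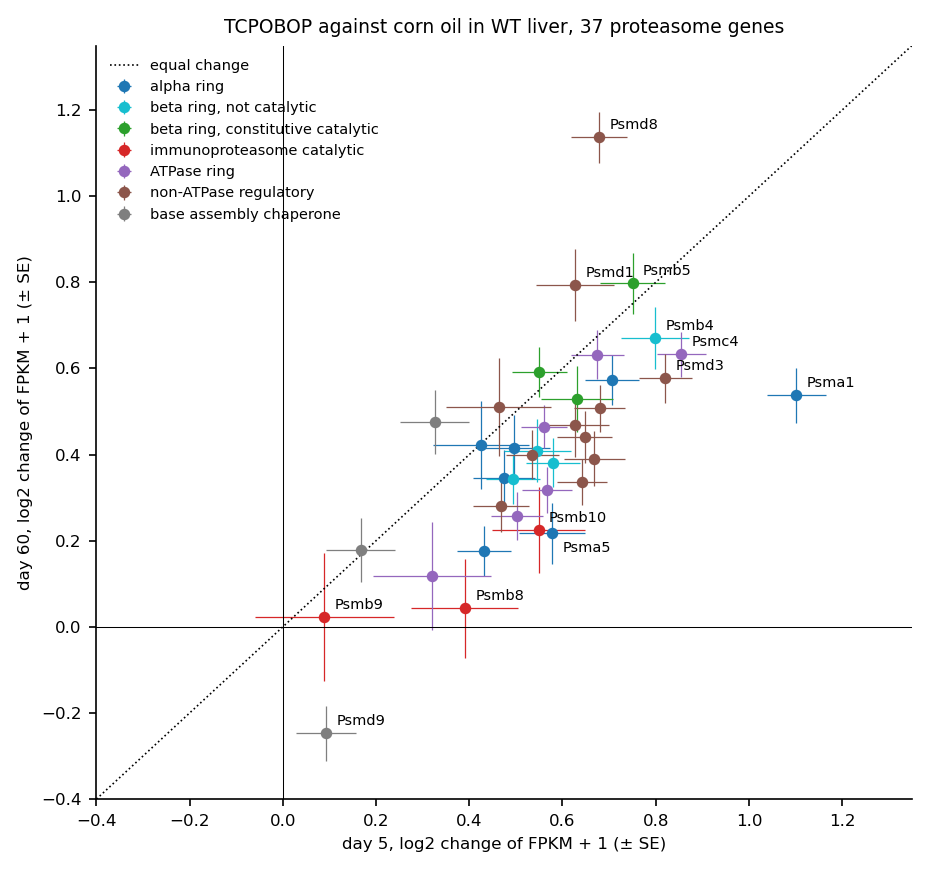
TCPOBOP change of each tested member in WT livers at day 60 (vertical axis) against that at day 5 (horizontal axis), as differences of log2(FPKM + 1). Most members lie below the line of equal change, Psmd8 stands above it (1.14 at day 60, 0.68 at day 5) and Psma1 is farthest below it (0.54 at day 60, 1.10 at day 5).

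CITCO left the standard subunits of adult hCAR-TG livers near their corn oil levels. At day 60, 1 of 37 members rose and none fell, against 4.40% of all tested genes that rose and 3.97% that fell, and 7 members had an unadjusted p under 0.05. The median change was 0.09, and the fold of the mean FPKM over the standard subunits ran from 0.954 for Psmc5 to 1.15 for Psmc3. The called member was the ATPase Psmc3, which had 54.5, 54.9 and 57.3 FPKM with CITCO, against 50.6, 47.3 and 47.4 FPKM with corn oil, a change of 0.19 ± 0.06 (adjusted p = 0.0362). Its call was lost when any of the 6 libraries but corn oil replicate 1 was left out (adjusted p 0.0705 to 0.13). In 21 members all 3 CITCO libraries lay above all 3 corn oil libraries, as in 15.9% of all tested genes. Psmd8 and Psmb5, the members with the largest TCPOBOP changes at this age, changed by 0.13 ± 0.06 (adjusted p = 0.212) and 0.04 ± 0.07 (adjusted p = 0.815). The lowest and highest changes of any tested member were -0.07 and 0.19, with SEs of 0.05 to 0.15 over the members.

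In newborn hCAR-TG livers the immunoproteasome subunits fell with CITCO, and few standard subunits were called. At day 5, 4 members rose and 3 fell, against 8.27% and 8.82% of all tested genes, and the 3 that fell were Psmb8, Psmb9 and Psmb10, the whole immunoproteasome set. Both counts are near those shares and as counts say nothing particular of the members. The risers were the alpha subunit Psma1 (0.29 ± 0.06, adjusted p = 0.00363), the chaperone Psmd9 (0.25 ± 0.06, adjusted p = 0.0116) and the ATPases Psmc4 (0.25 ± 0.05, adjusted p = 0.00299) and Psmc1 (0.22 ± 0.05, adjusted p = 0.0043). Psma1 had 57.3, 55.3 and 54.0 FPKM with CITCO, against 49.0, 45.7 and 41.2 FPKM with corn oil, and the groups did not overlap. None of the 4 risers passed with the 2 compared groups alone in the fit (adjusted p 0.0586 to 0.118), and Psmd9 did not without hCAR-TG day 5 CITCO replicate 2 (0.0691). The counts of 4 and 3 were the same without the 3 libraries rich in acinar transcripts and without hCAR-TG day 5 corn oil replicate 3. None of the 3 constitutive catalytic or 11 non-ATPase subunits was called. With the number closing the read file names as a factor 11 rose and 3 fell, and with library weights 13 rose and 4 fell.

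Psmb9 fell most with CITCO at day 5. It had 11.6, 10.2 and 10.8 FPKM in CITCO livers, against 25.4, 16.2 and 18.4 FPKM in corn oil livers, a change of -0.80 ± 0.15 (adjusted p = 0.00111). Psmb10 had 17.2, 15.3 and 16.9 FPKM with CITCO, against 28.7, 20.6 and 27.9 FPKM with corn oil, a change of -0.60 ± 0.10 (adjusted p = 0.000324). Psmb8 had 17.9, 15.4 and 18.2 FPKM with CITCO, against 32.4, 21.2 and 24.9 FPKM with corn oil, a change of -0.56 ± 0.11 (adjusted p = 0.0021). All CITCO libraries were below all corn oil libraries for each of the 3, and the corn oil libraries spread widely, with replicate 1 the highest. Leaving out any 1 library kept all 3 calls, and with the 2 compared groups alone in the fit Psmb8 had adjusted p = 0.0896. At day 60 the same 3 genes changed by 0.02 ± 0.15, 0.12 ± 0.10 and 0.11 ± 0.11 for Psmb9, Psmb10 and Psmb8, none called. The response at day 60 minus that at day 5 was called in these 3 members and in no other, against 5.37% of all tested genes called higher: 0.82 ± 0.21 (adjusted p = 0.0175) for Psmb9, 0.72 ± 0.14 (adjusted p = 0.00281) for Psmb10 and 0.67 ± 0.16 (adjusted p = 0.0112) for Psmb8. The Psmb9 difference had adjusted p = 0.0518 without hCAR-TG day 60 CITCO replicate 3. With the number closing the read file names as a factor, 1 of the 3 differences was no longer called.

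Genes of the class I pathway fell beside them. Of 18 class I and interferon genes, 6 were lower and none higher with CITCO at day 5, against 8.82% and 8.27% of all tested genes. Tap1 and Tap2, the pump that carries proteasome peptides to class I molecules, changed by -0.65 ± 0.12 (adjusted p = 0.000743) and -0.47 ± 0.08 (adjusted p = 0.00024), and Tapbp, the tapasin gene, by -0.23 ± 0.06 (adjusted p = 0.00929). The class I heavy chains H2-K1 and H2-D1 and B2m were not called (-0.17, -0.07 and 0.03). In the GENCODE annotation of GRCm38, Psmb9 (chr17:34181987-34187764, minus strand), Tap1 (chr17:34187553-34197225, plus strand), Psmb8 (chr17:34197721-34201454, plus strand) and Tap2 (chr17:34203527-34216321, plus strand) are neighbours, and the starts of Psmb9 and Tap1 overlap head to head. Psmb10 lies on chromosome 8. Markers of several other cell types, and of hepatocytes, were lower in the same livers. The leukocyte list had 2 of 4 genes lower, with sums of 78.3 to 99.5 FPKM with CITCO and 102 to 110.4 FPKM with corn oil. The neutrophil list had 4 of 8 lower, with sums of 561 to 1081 FPKM with CITCO and 1120.0 to 1469 FPKM with corn oil, and the endothelial list 4 of 6 lower, with sums of 103 to 109 FPKM with CITCO and 131 to 145 FPKM with corn oil. The erythroid list had 1 of 8 lower and 1 higher, with wholly separate sums of 4957 to 5889 FPKM with CITCO and 6675 to 8762 FPKM with corn oil. The hepatocyte list had 2 of 10 lower, with sums of 96360.0 to 100700.0 FPKM with CITCO and 108300.0 to 118700.0 FPKM with corn oil, also wholly separate. The stellate list had 2 of 6 lower, with sums of 140.0 to 146 FPKM with CITCO and 145 to 166 FPKM with corn oil. None of 8 tested lymphocyte genes and 1 of 12 Kupffer cell genes changed, and no list had a gene at 0 in all libraries of either group. The part of these cells in the immunoproteasome change was not tested.

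The 2 receptor and ligand pairs were compared by the difference of their responses. At day 5 the CITCO response of hCAR-TG livers was lower than the TCPOBOP response of WT livers in 32 of 37 members and higher in none, against 22.2% of all tested genes called lower. The largest differences were in Psmb10 (-1.15 ± 0.14, adjusted p = 4.13e-06), Psmb8 (-0.95 ± 0.16, adjusted p = 0.000173) and Psmb9 (-0.89 ± 0.21, adjusted p = 0.00349), followed by Psmd3 (-0.87 ± 0.08, adjusted p = 1.14e-07). At day 60 it was lower in 28 members and higher in 1, against 24.1% and 9.77% of all tested genes. Psmd8 differed most (-1.0 ± 0.09, adjusted p = 1.5e-08), then Psmb5 (-0.75 ± 0.10, adjusted p = 5.22e-06) and Psmd1 (-0.67 ± 0.12, adjusted p = 0.000155), and the 1 higher member was Psmd9 (0.24 ± 0.09, adjusted p = 0.0468). Of the 28, 19 were called lower after median-of-ratios scaling. The Psmd9 call was lost when any of 9 of the 12 libraries was left out, all but WT day 60 corn oil replicate 1, hCAR-TG day 60 corn oil replicate 3 and hCAR-TG day 60 CITCO replicate 2. As Cyp2b10 also responded at different levels in the pairs, with 413, 426 and 467 FPKM in hCAR-TG CITCO livers and 1636, 1788 and 1658 FPKM in WT TCPOBOP livers at day 5, and no dose is given, ligand, receptor and dose cannot be told apart in these differences. At day 5 the number closing the read file names cannot be told apart from the difference between the pairs either.

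The balance of immunoproteasome to constitutive subunits was read as a ratio of FPKM within each library, which does not depend on scaling. In WT livers the ratio of Psmb8 to Psmb5 at day 60 was 0.127, 0.130 and 0.152 with TCPOBOP, against 0.226, 0.250 and 0.217 with corn oil. In hCAR-TG livers at day 5 it was 0.528, 0.435 and 0.549 with CITCO, against 0.972, 0.673 and 0.679 with corn oil. The ligand libraries lay below the corn oil libraries in both. The ratio of Psmb9 to Psmb6 was 0.129, 0.120 and 0.121 with CITCO at day 5, against 0.302, 0.201 and 0.196 with corn oil, and that of Psmb10 to Psmb7 was 0.180, 0.169 and 0.185 with CITCO, against 0.311, 0.242 and 0.343 with corn oil. With TCPOBOP all 3 ratios were lower at day 60, and at day 5 the first and second were lower while Psmb10 to Psmb7 overlapped (exact permutation p = 0.8). With CITCO at day 60 none was separated (exact permutation p of 0.5 to 0.8). Each separated comparison had an exact two-sided permutation p of 0.1, the smallest that 3 against 3 libraries allow, and 0.15 after adjustment over the 24 tests, so none can pass 0.05. In WT livers the denominators Psmb5, Psmb6 and Psmb7 rose and no numerator was called lower, while in hCAR-TG livers at day 5 the numerators fell and no denominator was called.

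**Figure D4:**
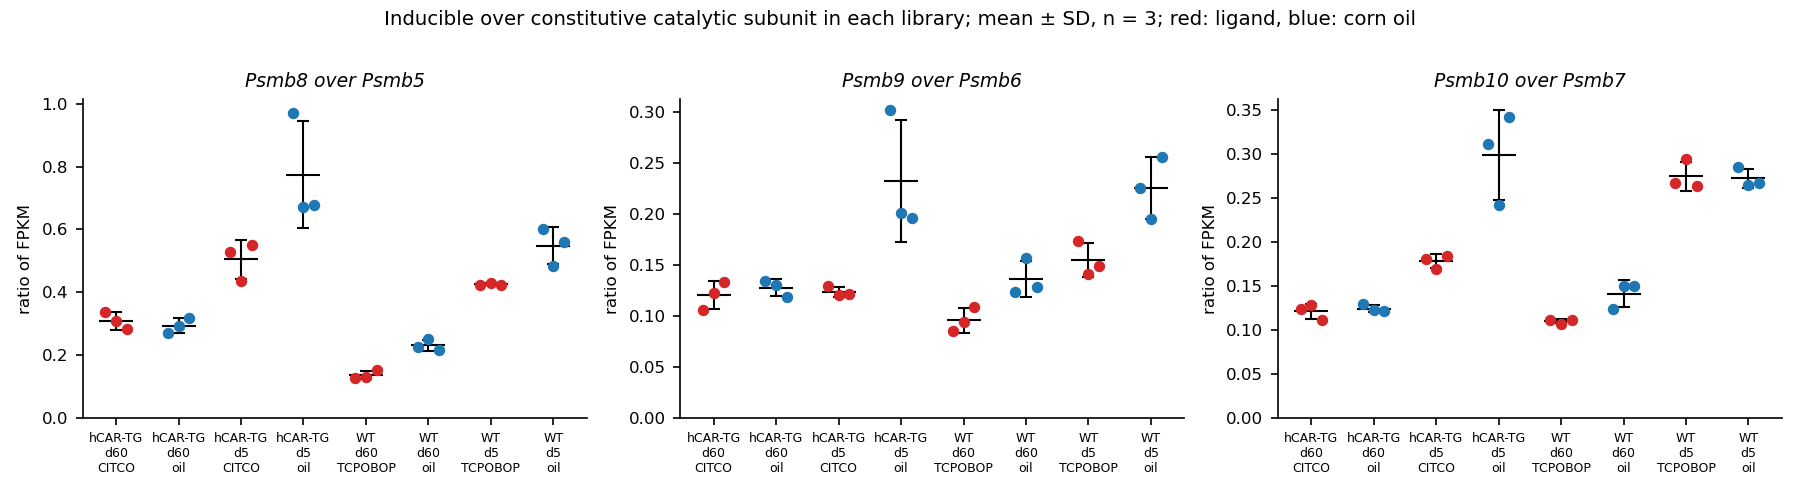
Ratio of FPKM of Psmb8 to Psmb5, Psmb9 to Psmb6 and Psmb10 to Psmb7 in every library, by group, with the mean and SD of 3 libraries; ligand groups stand left of their corn oil groups. Day 60 libraries lie below day 5 libraries of the same genotype with corn oil in all 3 ratios, for example 0.271 to 0.318 at day 60 and 0.673 to 0.972 at day 5 for Psmb8 to Psmb5 in hCAR-TG livers.

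From newborn to adult, transcripts of most standard subunits rose in corn oil livers and those of the immunoproteasome subunits fell. In hCAR-TG livers 21 of 37 members were higher and 4 lower at day 60 than at day 5, against 24.3% and 47.3% of all tested genes. In WT livers 23 were higher and 4 lower, against 25.2% and 44.9%. The median change of the members was 0.20 in hCAR-TG and 0.29 in WT livers, while the median over all tested genes was -0.17 and -0.14. Median-of-ratios scaling moved the median of all genes to 0.06 in both genotypes and that of the members to 0.47 in hCAR-TG and 0.53 in WT livers, and then 32 members were higher and 4 lower in hCAR-TG livers and 32 higher and 3 lower in WT livers. Of the members called higher, 19 were shared, 90.5% of the hCAR-TG and 82.6% of the WT calls. With the number closing the read file names as a factor, 12 were called higher and 2 lower in WT livers, and in hCAR-TG livers that number cannot be told apart from age.

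Psmd11, a lid subunit, gained most with age. It had 37.9, 42.4 and 43.2 FPKM at day 60, against 25.2, 25.0 and 21.6 FPKM at day 5 in hCAR-TG livers, a change of 0.76 ± 0.07 (adjusted p = 7.54e-09). In WT livers it had 36.3, 42.2 and 37.9 FPKM at day 60, against 20.4, 19.9 and 23.8 FPKM at day 5, a change of 0.83 ± 0.07 (adjusted p = 2.13e-09). Day 60 libraries were clear of day 5 libraries in both. The ATPase Psmc6, the member least changed by TCPOBOP among the standard subunits, rose with age by 0.51 ± 0.13 (adjusted p = 0.00127) in hCAR-TG and 0.55 ± 0.13 (adjusted p = 0.00063) in WT livers. Psma4 in hCAR-TG (0.49 ± 0.10, adjusted p = 0.000227) and Psmd12, a lid subunit, in WT livers (0.51 ± 0.06, adjusted p = 6.04e-07) came next. For Psmc6 and Psma4, hCAR-TG day 5 corn oil replicate 3 was below every other day 5 library of either genotype. That low library enters their hCAR-TG age changes, so their size and rank there are uncertain. Of the 6 ATPases 5 rose in each genotype, as did 7 of 11 non-ATPase subunits in hCAR-TG and 9 of 11 in WT livers. Among the constitutive catalytic subunits Psmb5 and Psmb7 rose in both genotypes, Psmb5 by 0.33 ± 0.07 in hCAR-TG and 0.49 ± 0.07 in WT livers. Psmb6 was called lower in WT livers (-0.24 ± 0.08, adjusted p = 0.008) and not in hCAR-TG livers (-0.15 ± 0.08, adjusted p = 0.0851). The WT call had adjusted p = 0.0719 without WT day 5 corn oil replicate 3 and 0.99 after scaling.

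**Figure D5:**
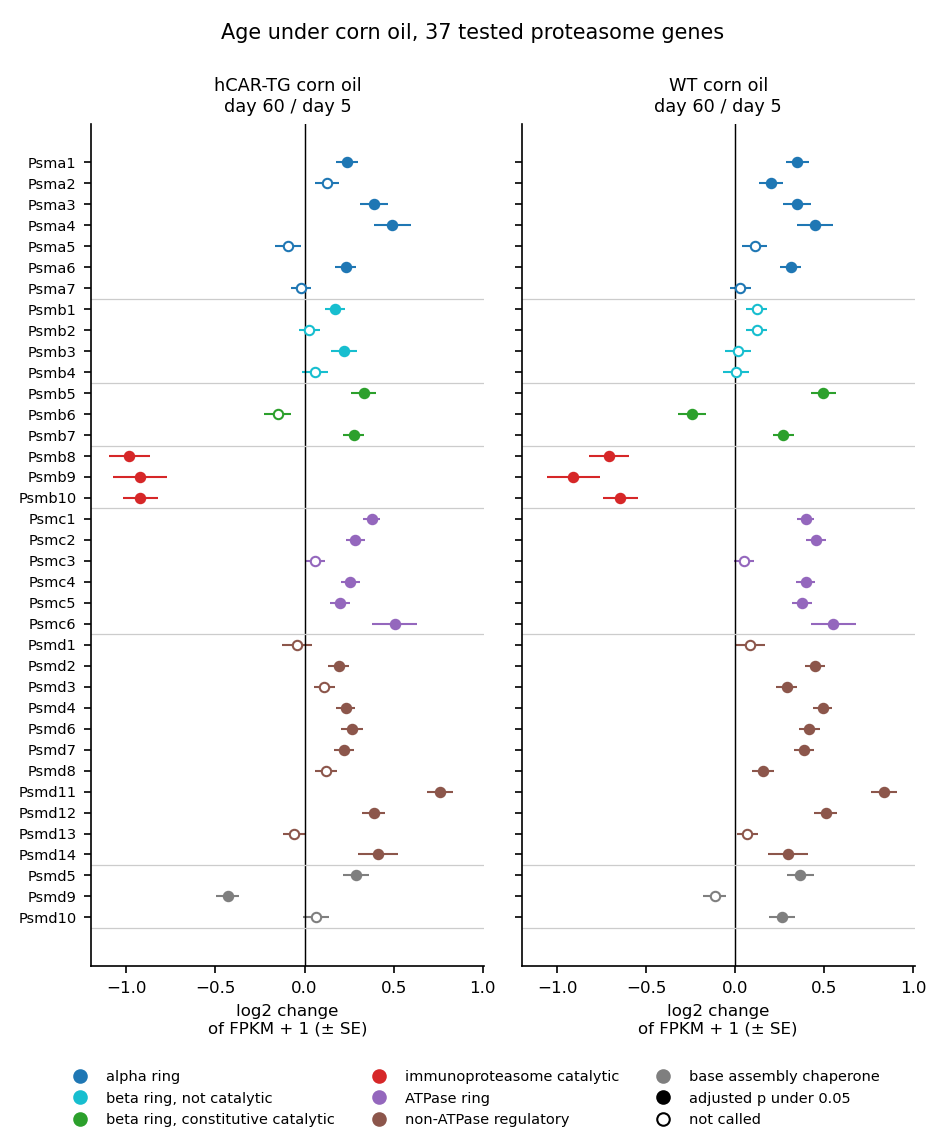
Change of each tested member at day 60 against day 5 in corn oil livers, as the difference of log2(FPKM + 1) with its SE, in hCAR-TG mice (left) and WT mice (right); filled points have an adjusted p under 0.05. Psmd11 is at the upper end in both (0.76 and 0.83), and Psmb8, Psmb9 and Psmb10 lie between -0.98 and -0.64.

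The 3 immunoproteasome subunits fell with age in both genotypes. Psmb8 had 12.28, 12.04 and 13.33 FPKM at day 60, against 32.4, 21.2 and 24.9 FPKM at day 5 in hCAR-TG livers, a change of -0.98 ± 0.11 (adjusted p = 1.39e-07). In WT livers it had 15.5, 17.9 and 14.9 FPKM at day 60, against 26.7, 23.6 and 30.8 FPKM at day 5, a change of -0.71 ± 0.11 (adjusted p = 1.25e-05). Psmb9 and Psmb10 changed by -0.92 ± 0.15 and -0.92 ± 0.10 in hCAR-TG and by -0.91 ± 0.15 and -0.64 ± 0.10 in WT livers, all called, although Psmb9 in WT livers had adjusted p = 0.297 with the number closing the read file names as a factor. The highest day 60 library was below the lowest day 5 library for each gene and genotype. H2-K1 and B2m, which display the peptides, were higher at day 60 (1.68 and 0.92 in hCAR-TG, 1.5 and 0.92 in WT), and Irf8, an interferon regulatory factor of myeloid cells, and Tapbp were lower (-1.62 and -0.66 in hCAR-TG, -1.41 and -0.44 in WT). Over the class I and interferon list, 7 were higher and 6 lower in hCAR-TG livers, against 24.3% and 47.3% of all tested genes. In WT livers 6 were higher and 3 lower, against 25.2% and 44.9%. Blood cell markers fell with age as well: all 4 leukocyte, all 8 neutrophil and all 8 tested lymphocyte genes were lower in both genotypes, with leukocyte sums of 20.8 to 25.3 FPKM at day 60 and 102 to 110.4 FPKM at day 5 in hCAR-TG and 24.2 to 30.7 FPKM at day 60 and 84.0 to 93.2 FPKM at day 5 in WT livers. Of the 12 Kupffer cell and macrophage genes, all in hCAR-TG and 11 in WT livers were lower, with sums of 269 to 352 FPKM at day 60 and 781 to 1262 FPKM at day 5 in hCAR-TG and 350.5 to 389 FPKM at day 60 and 748 to 770.5 FPKM at day 5 in WT livers. The endothelial list had 5 of 6 lower in both, the erythroid list 8 of 8 in hCAR-TG and 7 of 8 in WT livers, and the stellate list 5 of 6 in hCAR-TG and 6 of 6 in WT livers. All 15 cell cycle genes were lower too. The part of these cells in the immunoproteasome change was not tested.

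Age changes differed between the genotypes in 2 members, both lower in hCAR-TG, against 4.84% of all tested genes. Psmd9 fell with age in hCAR-TG livers (-0.43 ± 0.06, adjusted p = 4.13e-06) and was not called in WT livers (-0.12 ± 0.06), and the difference was -0.31 ± 0.09 (adjusted p = 0.0388). The ubiquitin receptor Psmd4 rose by 0.23 ± 0.05 in hCAR-TG and 0.49 ± 0.05 in WT livers, a difference of -0.26 ± 0.08 (adjusted p = 0.0435). Both calls were lost after scaling (adjusted p = 0.0737 and 0.0814), with the compared groups alone in the fit and without the acinar-rich libraries (0.129 and 0.136), and leaving out single libraries ended the Psmd9 call in 8 of 12 cases and the Psmd4 call in 9 of 12. Across the 37 members the age changes of the genotypes had r = 0.948 and rho = 0.856, as a description over genes that share libraries. The number closing the read file names cannot be told apart from the difference in age changes between the genotypes.

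Between hCAR-TG and WT livers given corn oil, Psmb5 was the member that differed most, at both ages. It had 45.4, 41.2 and 41.9 FPKM in hCAR-TG livers at day 60, against 68.6, 71.6 and 68.7 FPKM in WT livers, a change of -0.69 ± 0.07 (adjusted p = 2.26e-06). At day 5 it had 33.3, 31.6 and 36.6 FPKM in hCAR-TG, against 44.5, 48.8 and 54.8 FPKM in WT livers, a change of -0.53 ± 0.07 (adjusted p = 2.72e-05). No hCAR-TG library reached the lowest WT library at either age. The fold of the mean FPKM was 0.615 at day 60 and 0.685 at day 5. The day 60 call was kept in every alternative (adjusted p at most 0.0261), and the day 5 call was lost with the 2 compared groups alone in the fit (0.0626). The number closing the read file names differed wholly between the compared groups at day 60 too. The day 60 fit with that number as a factor therefore drew on other groups, and at day 5 no such fit could be made. The partner subunits Psmb6 and Psmb7 were not called at day 60 (0.08 ± 0.08 and 0.0029 ± 0.06) or day 5 (-0.01 ± 0.08 and -0.0049 ± 0.06). The ratio of Psmb8 to Psmb5 was higher in hCAR-TG livers, 0.271, 0.292 and 0.318, against 0.226, 0.250 and 0.217 in WT livers at day 60, with Psmb8 itself not called (-0.33 ± 0.11).

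Few other members differed by genotype. At day 60, 2 of 37 were called, both lower, against 4.90% of all tested genes called either way, and the second was Psmd9 (-0.22 ± 0.06, adjusted p = 0.0491), whose call was lost without WT replicate 2 or 3 or hCAR-TG replicate 1 or 2. At day 5, 4 were called, 3 higher and 1 lower, against 10.6% of all tested genes, 8.29% higher and 2.27% lower. The counts at both ages are near these shares and say nothing particular of the members as a set. The base subunits Psmd2 (0.26 ± 0.06, adjusted p = 0.00523) and Psmd4 (0.18 ± 0.05, adjusted p = 0.0352) and the lid subunit Psmd3 (0.22 ± 0.06, adjusted p = 0.0132) were higher in hCAR-TG livers, and Psmb5 was lower. Psmd2 had 50.4, 48.5 and 45.2 FPKM in hCAR-TG livers, against 38.2, 40.8 and 41.1 FPKM in WT livers. The day 5 count was 2 without WT day 5 corn oil replicate 2 and without the acinar-rich libraries, 9 without hCAR-TG day 5 corn oil replicate 3 and 15 with library weights. With the 2 compared groups alone in the fit none of the 4 was called, Psmd2 included. Psmd3 was not called without WT day 5 corn oil replicate 2 (adjusted p = 0.0767), nor was Psmd4 without WT replicate 1 or 2 or hCAR-TG replicate 1 or 3. All 8 neutrophil and 7 of 8 erythroid markers were higher in hCAR-TG newborns, with neutrophil sums of 1120.0 to 1469 FPKM, against 301 to 777 FPKM in WT, and the part of these cells was not tested. The number closing the read file names also separates these day 5 groups and cannot be told apart from genotype.

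Genes of proteasome partners without a Psma to Psmd symbol mostly rose with TCPOBOP in WT livers. Of 20 such genes (assembly chaperones, activators, ubiquitin receptors, deubiquitinases and ubiquitin genes), 12 rose and none fell with TCPOBOP at day 60, against 31.4% of all tested genes that rose, and 13 rose and 1 fell at day 5, against 24.6% that rose. Psmg1, a chaperone of alpha ring assembly, had 29.7, 27.6 and 28.4 FPKM at day 60 with TCPOBOP, against 14.5, 12.8 and 13.5 FPKM with corn oil, a change of 1.02 ± 0.07 (adjusted p = 2.09e-10). All TCPOBOP libraries were far above all corn oil libraries. Psmf1, an inhibitor of the core, rose by 0.52 ± 0.06 (adjusted p = 5.82e-07), the ubiquitin gene Ubb by 0.57 ± 0.08 (adjusted p = 3.25e-06) and the ubiquitin receptor Adrm1 by 0.46 ± 0.07 (adjusted p = 5.16e-06). At day 5 Adrm1 rose by 0.72 ± 0.07 (adjusted p = 2.29e-08), the interferon-inducible activator subunit Psme1 by 0.52 ± 0.08 (adjusted p = 2.17e-05), the nuclear activator Psme3 by 0.32 ± 0.06 (adjusted p = 0.000136) and Pomp, the maturation protein of the core, by 0.40 ± 0.07 (adjusted p = 0.000144), while Akirin2, which takes part in nuclear import of proteasomes, was lower (-0.19 ± 0.07, adjusted p = 0.0427). With CITCO, 2 of 20 rose at day 60 (Ubb by 0.48 ± 0.08, adjusted p = 0.000383, and Psme1 by 0.30 ± 0.08, adjusted p = 0.0196), and at day 5 Pomp and Psmf1 rose (0.23 ± 0.07 and 0.23 ± 0.06) and Psme2 and Ubb fell (-0.33 ± 0.08 and -0.28 ± 0.08). Over all tested genes 4.40% rose with CITCO at day 60, and 8.27% rose and 8.82% fell at day 5. With age 6 partners rose and 9 fell in hCAR-TG livers, against 24.3% and 47.3% of all tested genes. In WT livers 7 rose and 10 fell, against 25.2% and 44.9%. These age counts are near the shares of all tested genes and say nothing particular of the partners.

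Nfe2l1, which encodes the factor that raises the subunit genes when proteasome activity falls short, had small changes beside them. It rose by 0.14 ± 0.06 (adjusted p = 0.0462) at day 60 and 0.19 ± 0.06 (adjusted p = 0.0116) at day 5 with TCPOBOP, and was not called with CITCO (-0.09 ± 0.06 at day 60 and 0.05 ± 0.06 at day 5). Vcp, the ATPase that pulls NFE2L1 out of the endoplasmic reticulum membrane, had 108, 104 and 101 FPKM at day 60 with TCPOBOP, against 69.1, 71.7 and 69.2 FPKM with corn oil, a change of 0.57 ± 0.05 (adjusted p = 1.56e-08). Its cofactor Nploc4 rose by 0.34 ± 0.06 (adjusted p = 7.66e-05), and Nfe2l2, the related oxidative stress factor, by 0.88 ± 0.10 (adjusted p = 4.2e-07), while Ddi2, the protease that activates NFE2L1, fell by 0.45 (adjusted p = 0.000512). At day 5 Vcp and Nploc4 rose by 0.63 ± 0.05 and 0.56 ± 0.06, and Nfe2l2 was not called (0.04 ± 0.10). Over the 12 genes of this list, 6 rose and 4 fell with TCPOBOP at day 60, against 31.4% and 15.8% of all tested genes. At day 5, 4 rose and 1 fell, against 24.6% and 11.3%. With CITCO none was called at day 60, against 4.40% that rose and 3.97% that fell. At day 5 with CITCO, 2 rose and 1 fell, against 8.27% and 8.82%. With age 6 rose and 2 fell in hCAR-TG livers, against 24.3% and 47.3%, and 8 rose and none fell in WT livers, against 25.2% and 44.9%. The list holds no measure of NFE2L1 protein or its processing.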

How the data were processed

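The authors deposited FPKM per gene as 1 table per library, with interval bounds and an estimate status for every entry, per the file headers. RNA Bee extraction and the TruSeq Stranded mRNA kit are named per the labels' protocols, and per the submitters' processing notes the build was mm10. The aligner, the quantifier and the annotation are not given in the sources used here. Read totals were not used, so depth is unknown; intervals gave relative depths of 0.853 to 1.085. Entries of repeated symbols were summed, 27 entries whose symbols had turned into dates were kept apart, and 5 genes with a failed estimate were left out.

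Genes that reached 1 FPKM in 3 or more of the 24 libraries were kept, and their log2(FPKM + 1) was fitted with limma 3.58.1 (lmFit, contrasts.fit, eBayes with trend and robust) in R 4.3.3, in 1 model of 8 group means, checked on simulated data, two-sided, with Benjamini-Hochberg adjustment over 12282 genes in each of 13 comparisons. A fold on this scale is smaller than the FPKM ratio for low genes. Ratios of subunits were compared by exact permutation (scipy 1.17.1). Members and gene lists were chosen with earlier results of these data known. In each comparison the text names up to 3 called members with the largest change each way, the 6 catalytic members from Psmb5 to Psmb10, members called against the majority, up to 4 called genes of each list by adjusted p, Cyp2b10 and Nr1i3; other genes are named where a sentence turns on them. Alternatives were median-of-ratios scaling, a pseudocount of 0.1, no filter or 5 FPKM, a replicate block, the compared groups alone, library (array) weights, a constant prior, the read file number as a factor, leaving out the 3 acinar-rich libraries and leaving out each library. Promoters are from RefSeq. The results of 1 listed gene and 1 motif are not reported here.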

Additional observations from a re-analysis of the deposited data

Results flagged for a closer look

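Differences between responses were tested with an interaction term of the limma fit, and those that passed are collected here, with no weighing of what may lie behind them. Between ages in WT livers, 11 of 37 members differed in their TCPOBOP response, against 23.4% of all tested genes. Psmd8 rose more at day 60 (by 0.46 on the log2 scale, as all values here), and Psma1 (-0.56), Psma5 (-0.36) and Psmd9 (-0.34) had a lower response at day 60. Between ages in hCAR-TG livers, 3 of 37 members differed in their CITCO response, against 9.99% of all tested genes: Psmb9 (0.82), Psmb10 (0.72) and Psmb8 (0.67), each called lower with CITCO at day 5 and not called at day 60.

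Between the CITCO response of hCAR-TG and the TCPOBOP response of WT livers, 32 of 37 members differed at day 5, against 33.7% of all tested genes, most in Psmb10 (-1.15), Psmb8 (-0.95) and Psmb9 (-0.89). At day 60, 29 differed, against 33.8% of all tested genes, with Psmd8 (-1.0), Psmb5 (-0.75) and Psmd1 (-0.67) lower and Psmd9 (0.24) higher in hCAR-TG livers. Between genotypes, 2 of 37 members differed in their change with age in corn oil livers, against 6.94% of all tested genes: Psmd9 (-0.31) and Psmd4 (-0.26). Both were lost under median-of-ratios scaling, with the compared groups alone and without the acinar-rich libraries. The counts for the hCAR-TG response and the change with age are near the shares of all tested genes and say nothing particular of the members. For the WT response the count either way is also near that share. By direction it is not, with 1 member higher and 10 lower, against 13.7% and 9.76% of all tested genes. The number closing the read file names cannot be told apart from the WT response difference or the age difference. The same holds for the day 5 difference between the receptor and ligand pairs.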

How the results depend on the processing

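No call of any tested member reversed in the 13 comparisons: of 3594 values for 208 calls under the alternatives, 3408 kept the call and 186 lost it. Median-of-ratios scaling gave member medians of 0.32 for TCPOBOP in WT at day 60, 0.53 for WT age and 0.47 for hCAR-TG age, and counts of 2 for CITCO at day 60, 2 for genotype at day 5 and 0 for the age difference. Without a filter the day 60 genotype count was 1. A replicate block (replicate number as a paired term) gave 1 for genotype at day 60 and 0 for the age difference and changed no other count by over 1.5 times. Nothing states that the numbers pair the libraries. Deviations from the group means of same-numbered libraries had correlations of -0.18 to 0.264 over 24 pairs, which with 3 libraries per group cannot exclude a pairing. Library weights gave 17 for CITCO at day 5, 3 for CITCO at day 60, 15 for genotype at day 5, 24 for the WT response difference, 8 for the hCAR-TG response difference and 12 for the age difference. With the read file number as a factor the counts were 14 for CITCO at day 5, 0 for CITCO at day 60, 14 for WT age, 1 for genotype at day 60 and 7 for the hCAR-TG response difference, and 6 comparisons could not be fitted. Those were TCPOBOP in WT at day 5, hCAR-TG age, genotype at day 5, the WT response difference and the age difference. The other was the day 5 difference between the receptor and ligand pairs. With the compared groups alone they were 2 for CITCO at day 5, 2 for CITCO at day 60, 0 for genotype at day 5, 1 at day 60, 7 for the WT response difference and 0 for the age difference. Without the acinar-rich libraries they were 2 for genotype at day 5, 4 for the WT response difference and 0 for the age difference. Leaving out 1 library gave 5 to 13 for the WT response difference, 0 to 3 for the age difference, 2 to 9 and 1 to 2 for genotype at day 5 and day 60, 0 to 1 for CITCO at day 60 and 2 to 3 for the hCAR-TG response difference. In all of these the cause was not tested. The other pseudocount, the stricter filter and the constant prior moved no count by over 1.5 times. TCPOBOP counts stayed at 31 to 33 at day 60 and 32 to 35 at day 5 when 1 library was left out. Read totals are unknown, so depth limits cannot be stated as counts; Psma8 and Psmb11, under 1 FPKM, were not tested.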

Other observations

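In newborn hCAR-TG livers corn oil replicate 3 was low in several subunits, of which Psmc6, Psmd14 and Psma4 were chosen after their values were seen. Psmc6 had 30.8, 30.5 and 31.0 FPKM with CITCO, against 32.7, 30.6 and 19.1 FPKM with corn oil. Psmd14 had 24.6, 22.5 and 23.1 FPKM with CITCO and 25.2, 22.8 and 15.0 FPKM with corn oil, and Psma4 had 55.0, 52.2 and 54.1 FPKM with CITCO and 62.0, 53.1 and 41.6 FPKM with corn oil. In all 3 genes corn oil replicate 3 was below every other day 5 library of either genotype.

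Psma8, the testis form of an alpha subunit, stayed under 1 FPKM and was not tested. It was listed at 0.712, 0.746 and 0.706 FPKM in WT day 60 TCPOBOP livers, against 0.485, 0.208 and 0.391 FPKM with corn oil, and every other library was below the lowest of the 3 TCPOBOP values.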
